A study of Mus musculus with 4 samples.

Results

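The HoxC and HoxD clusters are a pair of the mouse's Hox gene clusters, each a row of homeobox genes on a single chromosome. The peaks described here are all those that the deposited Meis and Prep lists hold between 102740000 and 102880000 on chromosome 15 (the HoxC window, 140 kb) and between 74490000 and 74620000 on chromosome 2 (the HoxD window, 130 kb), in the mm9 build. They were chosen by position: 15 peaks of 9017 in the lists together. Of these, 13 were Meis peaks (5 in HoxC and 8 in HoxD, of 5686 in the list) and 2 were Prep peaks (1 in each window, of 3331). The windows were proposed with the peak lists in view, so the number of peaks in them is a description and was given no test.

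The lists come from chromatin immunoprecipitation and sequencing of wild-type C57BL/6 trunks at embryonic day 11.5, dissected, dissociated to single cells and cross-linked. The Meis library was made with antibodies labelled Meis1/2 (K830, K844) and the Prep library with an antibody labelled Prep1/2 (N15 Santa Cruz). Each antibody had 1 library and 1 input library without antibody, and no file of the inputs was analysed here. Nothing measures the spread between embryos or experiments, and a trunk mixes many cell types, so a peak cannot be assigned to any of them. Read depth is unknown.

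Hox proteins give cells their position along the body axis. Genes at the low-numbered end of a cluster are switched on earlier and farther forward in the embryo, those at the high-numbered end later and farther back, so the ends are called anterior and posterior. Meis and Prep are homeodomain proteins of the TALE class, which bind DNA with Pbx proteins; Meis also acts as a cofactor of Hox proteins. HoxC and HoxD genes are known for patterning the vertebrae, the spinal cord and the limbs, and HoxD also the genital bud.

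In the RefSeq gene table of GRCm38.p6, the high-numbered genes lie at the low-coordinate end of both clusters. The HoxC order starts with Hoxc13, Hoxc12, Hoxc11 and Hoxc10 and goes on with Hoxc9, Hoxc8, Hoxc6, Hoxc5 and Hoxc4. The HoxD order starts with Hoxd13, Hoxd12, Hoxd11 and Hoxd10 and goes on with Hoxd9, Hoxd8, the overlapping models of Hoxd3 and Hoxd4, and Hoxd1. In that order, the high-coordinate side of a window is the side of Hoxc4 or Hoxd1, and it is called the anterior side below. The table belongs to another build, so it gave the order of the genes and no distances: no peak is assigned to a gene, exon, intron or promoter, and the order was taken to be the same in mm9. The middle of a window need not be the middle of its gene cluster.

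Meis peaks lay on the anterior side in HoxC without exception and in HoxD for the most part. Of the 5 HoxC peaks, 0 lay in the low-coordinate 70 kb and 5 in the high-coordinate 70 kb. Of the 8 HoxD peaks, 2 lay in the low-coordinate 65 kb and 6 in the high-coordinate 65 kb. In steps of 35 kb from the posterior side, HoxC held 0, 0, 2 and 3 Meis peaks. In steps of 32.5 kb, HoxD held 0, 2, 5 and 1. The HoxC peaks reached farther towards the anterior edge, to 88.1% of the way along the window, where the last HoxD peak stood at 77.9%.

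Some of these peaks lay close to the dividing line. The first HoxC peak was 1.53 kb past the middle of its window, and the second HoxD peak 2.36 kb short of the middle of its own. Counted from the midpoint between the outermost Meis peaks instead, 4 of 5 HoxC and 6 of 8 HoxD peaks were on the anterior side. That line is set by the peaks it divides, so it is no fixed place in the cluster and cannot check the lean to the anterior side. In HoxC the outermost peaks stood at 71.5 and 123.3 kb from the window start. The second peak, at 97.7 kb, lay barely past the line between them.

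**Figure D1:**
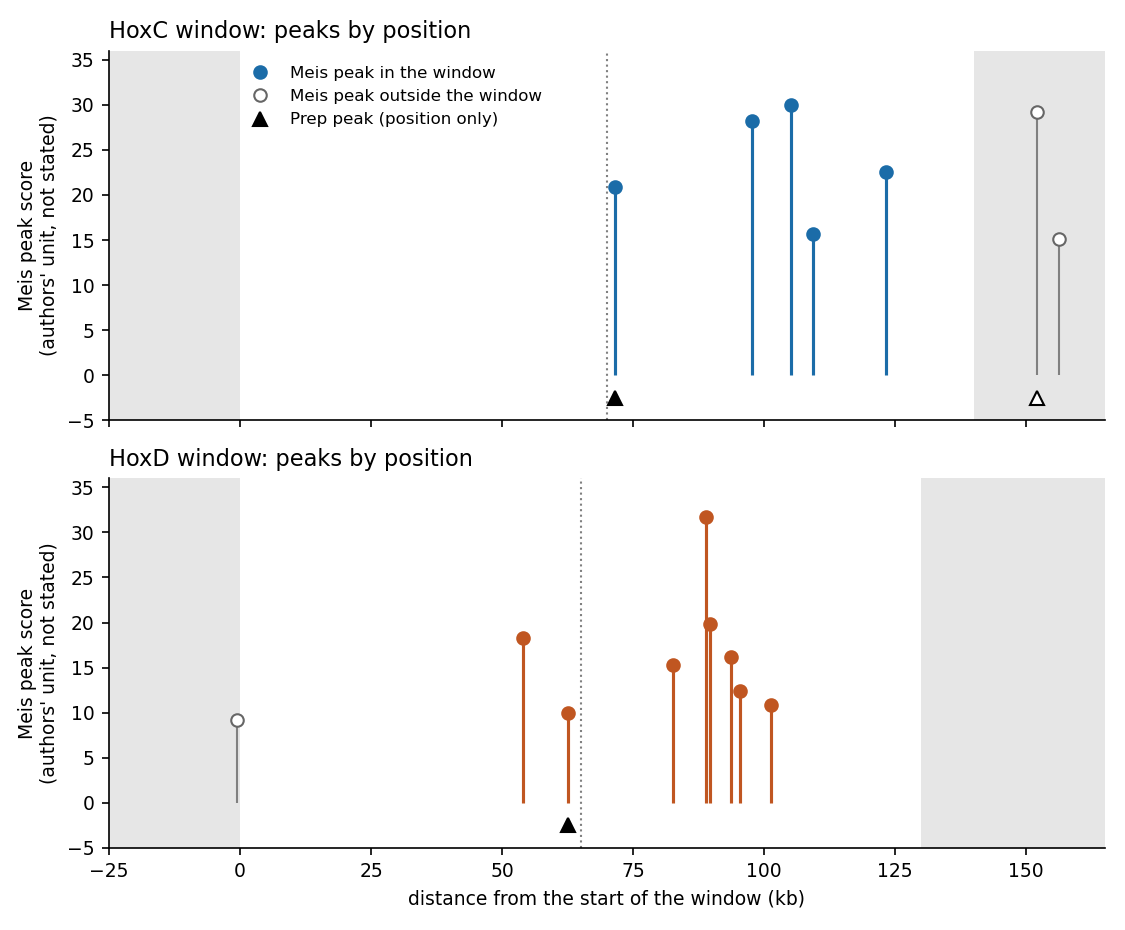
Meis peaks of the HoxC window (top) and the HoxD window (bottom) by distance from the start of the window in kb (x axis) and by score in the authors' unit (y axis). The left is the side of Hoxc13 or Hoxd13; dotted lines mark the middle of each window, grey bands the sequence outside it, open symbols peaks outside it, and triangles the positions of Prep peaks. The first HoxC peak stands at 71.5 kb and the first HoxD peak at 54.0 kb, and nothing is listed before them inside either window.

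The posterior end of each window was empty of peaks in both lists. In HoxC, the stretch with 0 Meis peaks began well outside the window and ran for 236.8 kb up to the first HoxC peak. Overlapping Meis and Prep peaks stood at both of its ends, so the Prep list was empty there over nearly the same length, also 236.8 kb. In HoxD, 54.6 kb without a Meis peak separated the first member from a weak peak just outside the window, at 74489263 to 74489403 with a score of 9.23. That peak missed the window by 596 bp. Past the last HoxD member, the next Meis peak followed after 94.3 kb. The lowest listed scores were 8.51 for Meis and 5.03 for Prep, so an empty stretch may hold binding too weak to be listed.

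The HoxC peaks were all among the stronger peaks of the Meis list. A score is the authors' value from their peak caller, on a scale that is not stated, and its percentile is the share of the list with a lower score. From the posterior to the anterior side, the 5 peaks scored 20.8, 28.3, 30.0, 15.6 and 22.5. Their percentiles were 93.9, 97.8, 98.4, 83.8 and 95.4, with a median of 95.4. The highest, at 102844972 to 102845166 on chromosome 15, held place 93 of the 5686. Its neighbour on the anterior side, at 102849200 to 102849403, had the lowest score of the window and held place 922. The second highest, at 102837622 to 102837820, held place 123. The outermost peaks, at 102811440 to 102811627 and at 102863202 to 102863411, held places 346 and 262.

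The HoxD peaks were spread more widely over the list. In the same direction they scored 18.3, 9.99, 15.3, 31.7, 19.9, 16.2, 12.4 and 10.8. Their percentiles were 90.4, 36.7, 82.5, 98.7, 92.9, 85.4, 66.4 and 51.2, with a median of 84.0. The highest, at 74578765 to 74578989 on chromosome 2, held place 75 and was the strongest Meis peak of both windows. Next came the peak at 74579474 to 74579691 (place 406), the most posterior peak at 74543961 to 74544134 (place 529), and those at 74583619 to 74583847 (place 812) and 74572564 to 74572793 (place 992). The peak at the anterior end, at 74591220 to 74591402, was weaker, at place 2758. From the strongest HoxD peak towards the anterior side, each peak scored lower than the one before it.

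The ranges of the clusters overlapped, and the 31.7 of HoxD lay above all HoxC peaks. Of the 5 HoxC peaks 4, and of the 8 HoxD peaks 3, were in the top 10% of the Meis list by score, a slice of 569 of the 5686 peaks. Together that is 7 of 13, or 53.8% (95% Wilson interval 29.1 to 76.8%, which covers the number of peaks and not the experiment). The interval treats neighbouring peaks as independent, in windows proposed with the lists in view, so it is no test against the 10%. Above the median Meis score of 10.7 were 5 of 5 and 7 of 8. Within HoxD, the 6 anterior-side peaks ranged from 10.8 to 31.7. Of the 2 posterior-side peaks, 18.3 lay inside that range and 9.99 below it. Peaks are not replicates, so no test was made between the clusters or their sides.

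**Figure D2:**
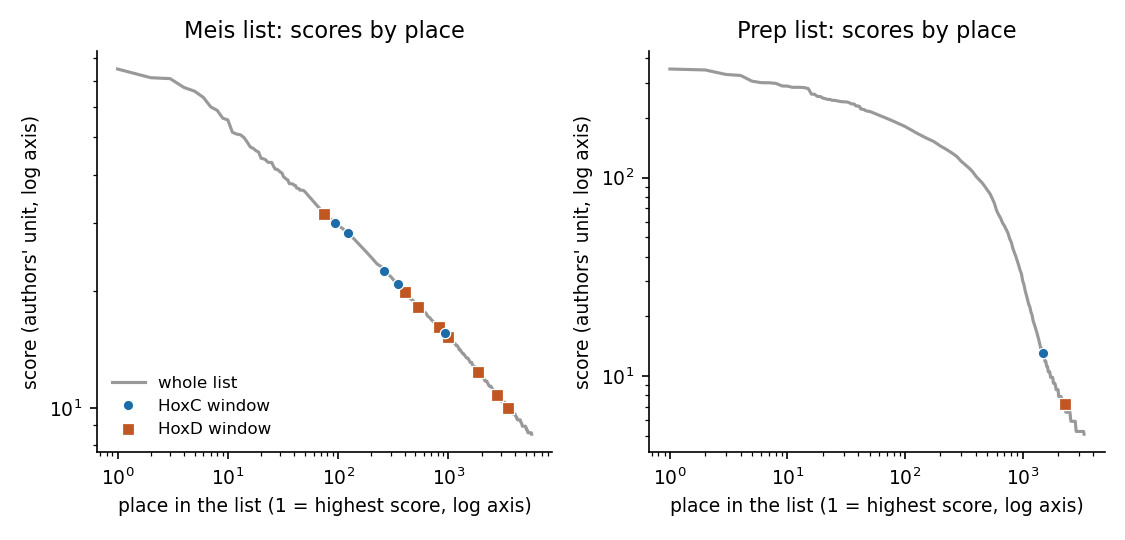
Score in the authors' unit (y axis, log scale) against place in the list (x axis, log scale) for the Meis list (left) and the Prep list (right), with the peaks of the HoxC window (circles) and the HoxD window (squares) on the curve of the whole list. HoxC Meis peaks stand between places 93 and 922 and HoxD Meis peaks between 75 and 3499, while the 2 Prep peaks stand at places 1481 and 2275.

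HoxD held its peaks closer together. It had 6.15 Meis peaks per 100 kb and HoxC 3.57, where the whole list had 0.225 over the stretches between the first and last peak of each chromosome. The centres of adjacent peaks were between 0.706 and 20.04 kb apart in HoxD, with a median of 5.93 kb over 7 spacings. In HoxC they were between 4.23 and 26.2 kb apart, with a median of 10.7 kb over 4 spacings. The closest pair, in HoxD, was made of the strongest HoxD peaks: those scoring 31.7 and 19.9, with 0.484 kb between their edges. In the Meis list, 103 of 5686 peaks (1.81%) had a nearer Meis neighbour than these.

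Every member had other Meis peaks around it, which most Meis peaks did not. Within 50 kb of their centres, the 8 HoxD peaks each had 7 other Meis centres, namely the rest of the group. The HoxC peaks had 3, 4, 5, 6 and 5, some of them beyond the window's anterior edge. In the whole list, 3435 peaks (60.4%) had none, 2251 (39.6%) had at least 1 and 360 (6.33%) had at least 3. The highest number in the list was 19, outside these windows.

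**Figure D3:**
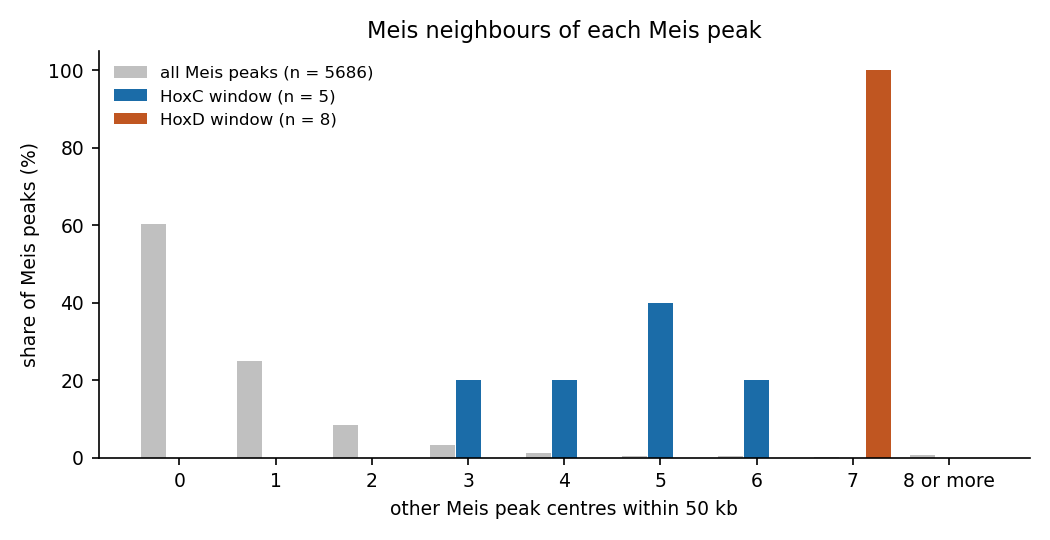
Share of Meis peaks in percent (y axis) by the number of other Meis peak centres within 50 kb (x axis), for all Meis peaks (grey), the HoxC window (blue) and the HoxD window (orange). The 8 HoxD peaks all stand at 7 and the 5 HoxC peaks between 3 and 6, while 60.4% of the list stands at 0.

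A dense group of at least 4 Meis peaks with gaps of up to 10 kb, called a run, was present in HoxD and not in HoxC. The HoxD run took in the 6 anterior-side peaks over 18.8 kb, at 74572564 to 74591402. In HoxC the longest series of peaks under this rule held 3, at 102837622 to 102849403 over 11.8 kb, and a 4th joined with gaps of up to 15 kb. Of the whole Meis list, 78 peaks (1.37%) lay in 13 such runs. Chromosome 6 carries the HoxA cluster and chromosome 11 the HoxB cluster in the RefSeq table. Their longest runs held 11 peaks (52108281 to 52128618) and 10 peaks (96180588 to 96213320), with median scores of 16.2 and 15.3 beside 15.7 in the HoxD run. Such runs were not confined to Hox clusters: a run on chromosome 18 (84236664 to 84256016) held 9 peaks with a median score of 27.3. The 3 HoxC peaks had a median score of 28.3. Whether these runs differ was not tested.

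Prep was listed once in each window, and both times on a Meis peak. Counted as for Meis, that is 0.714 Prep peaks per 100 kb in HoxC and 0.769 in HoxD, where the whole Prep list had 0.131. Each of these window values rests on 1 peak. In HoxC the Prep peak at 102811455 to 102811703 on chromosome 15 scored 13.1 and overlapped the most posterior Meis peak (102811440 to 102811627, score 20.8) by 173 bp. In HoxD the Prep peak at 74552526 to 74552794 on chromosome 2 scored 7.22 and covered the second most posterior Meis peak (74552555 to 74552716, score 9.99) over its full 162 bp. The Meis partner was in each window the listed Meis peak nearest to the middle, and the more anterior Meis peaks, 4 in HoxC and 6 in HoxD, had no listed Prep peak. The nearest Prep centre to these was between 20.02 and 38.7 kb away. The most posterior HoxD Meis peak, at 8.61 kb from the Prep centre, had no Prep partner either. Most Meis peaks anywhere had none: over the whole list, 407 of 5686 (7.16%) overlapped a Prep peak.

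The HoxC pair and the HoxD pair stood differently in the lists. The HoxC pair was in the upper part of both, with percentiles of 93.9 for Meis and 54.8 for Prep. The HoxD pair was in the lower part of both, with 36.7 and 30.6. The HoxD partner was the lowest-scoring Meis peak of its window, and the only one of the 13 Meis members below the median Meis score. Over the lists, Meis peaks that overlapped a Prep peak had a median percentile of 78.2, and the Prep peaks that overlapped a Meis peak 35.6. Of the 409 overlapping pairs in the lists, 34 others had both percentiles as low as the HoxD pair or lower, and 20 others had both as high as the HoxC pair or higher.

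The centres of the partners were 45.5 bp apart in HoxC and 24.5 bp in HoxD, where the 409 pairs had a median of 28.5 bp (quartiles 13 and 53 bp). The Prep peak was the wider partner in both, with 249 against 188 bp and 269 against 162 bp, as in 351 of the 409 pairs. The overlapped Meis peak was the narrowest of its window each time. The other HoxC peaks were 195 to 210 bp wide and the other HoxD peaks 174 to 230 bp, against a median of 209 bp in the whole Meis list. Over that list too, Meis peaks that overlapped a Prep peak were narrower, with a median of 197 bp against 210 bp for the rest.

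**Figure D4:**
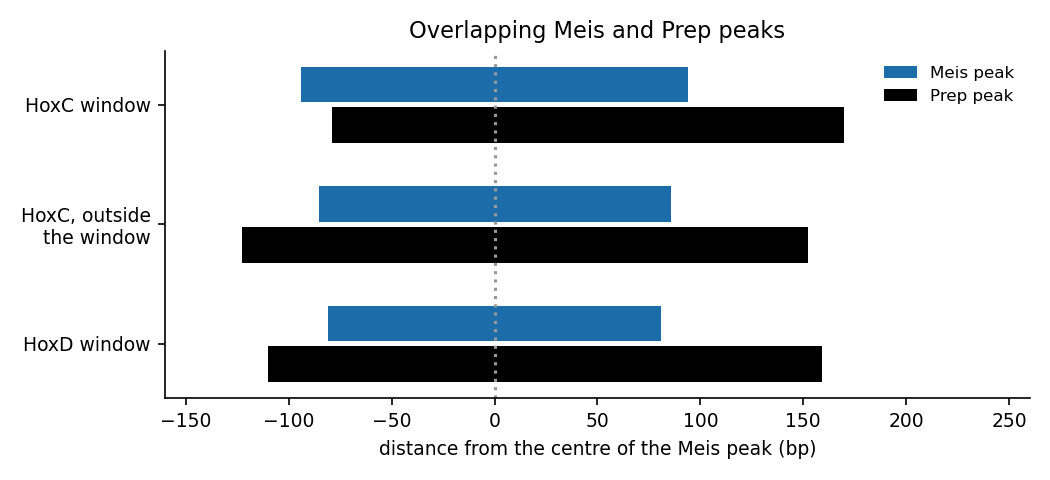
Extent of the overlapping Meis (blue) and Prep (black) peaks in bp from the centre of the Meis peak (x axis), for the pair inside the HoxC window (top), a further pair 12.0 kb past its anterior edge (middle) and the pair inside the HoxD window (bottom). In the HoxD pair and the pair outside the window the Prep peak covers the whole Meis peak, and in the HoxC pair it covers 92.0% of it.

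Of the 13 Meis members, 2 overlapped a Prep peak, or 15.4% (95% Wilson interval 4.33 to 42.2%, which again treats neighbouring peaks as independent). Over the Meis list 407 of 5686 did (7.16%). Of the Prep peaks 2 of 2 overlapped a Meis peak, where 408 of 3331 did over the list (12.2%). These shares describe the windows and were not tested.

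Beyond the windows, each cluster had more Meis peaks on its anterior than on its posterior side. In the 500 kb past the posterior edge, HoxC had 5 Meis peaks with a median score of 8.68, none in the highest-scoring 10%. In the 500 kb past its anterior edge it had 9, with a median score of 15.2, 4 of them in the highest-scoring 10%. Of these 9, 4 formed a separate run well past the edge, at 103120062 to 103135883, with a median score of 20.3 and a highest score of 70.9. The larger HoxC count on the anterior side depends on that run. The nearest of the 9 lay 12.0 kb past the edge, at 102892028 to 102892198, scored 29.2 and overlapped a Prep peak that scored 8.54. A second, at 102896150 to 102896355 with a score of 15.2, had no Prep partner. Meis peaks were thus listed past the edge that the window sets, but after a gap of 28.6 kb from the last HoxC member. That gap was longer than any between adjacent HoxC members.

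In the 500 kb past the posterior edge of HoxD there was 1 Meis peak, the weak one beside the edge, and in the 500 kb past the anterior edge there were 9, with a median score of 9.82 and 1 in the highest-scoring 10%. That one, at 74685705 to 74685877, scored 22.7. Prep was listed 0 times in both of these stretches, but 3 times past the posterior and 7 times past the anterior edge of HoxC. The Prep peak of the HoxD window was therefore alone: the next Prep peaks were 821.5 kb away on the posterior and 989.7 kb on the anterior side. Of the Prep list, 296 peaks (8.89%) had a more distant nearest neighbour than the HoxD peak.

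Promoters were looked at for the sequence that Meis and Prep are known to bind, TGACAG, and for longer forms with Pbx (TGATTGAC and TGAGTGAC) or of Pbx with Hox proteins (TGATTTAT and TGATTAAT), on both strands. The RefSeq table of GRCm38.p6 held a promoter of 300 bases for 6 of the 10 named genes: Hoxc4, Hoxd1, Hoxd3, Hoxd4, Hoxd8 and Hoxd9. None of these 6 held any of the 5 motifs, where 19.2% of all 32851 promoters held TGACAG and between 0.700 and 1.47% held each of the others. This absence says only that these letters are not in those 300 bases, and no peak could be placed on them. With 6 promoters it cannot be told apart from the shares over all promoters, and it was not tested. The sequence of the peaks themselves was not used here.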

How the data were processed

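The authors deposited 1 peak list for each antibody library. Reads were aligned with BWA to mm9, per the submitters' processing notes. Each deposited peak has a score, the authors' own value, on a scale that the file headers do not give. The peak names carry the tag "pics". How the caller was set, and whether it used the inputs, was not given in the sources used here.

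Positions count from 1, for which 1 was added to each start; this assumes BED numbering, which the file headers do not state. A peak was inside a window, or shared, when it overlapped by at least 1 bp. Places follow the score, with tied scores ordered by the number in the peak name; percentiles, runs, spacings, neighbours within 50 kb and flanks of 500 kb were computed within a list. Scores of different lists were not compared.

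Each antibody has 1 library, so no test was made and no value has a replicate error. The windows, the measures and the genes were chosen with earlier results of these data known. All peaks of the windows were described: those with full values were the 5 highest-scoring Meis peaks and the Prep peaks of each window, overlapping pairs and outermost peaks. Motifs were to be searched in the peaks too, which no mm9 sequence at hand allowed. Alternatives were the highest-scoring 50% of each list, other overlap rules, windows wider by 20 kb and another dividing line; run gaps of 15 and 20 kb and the flanks were added after the data were examined. Python 3.11.15, numpy 2.4.6, pandas 2.3.3 and scipy 1.17.1 were used, and counting and overlap were tested on simulated lists.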

Additional observations from a re-analysis of the deposited data

How the results depend on the processing

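Over the 12 results, 27 of the 34 alternatives gave counts within 1.5 times the main one or percentiles within its counting interval. The rules for counts and for percentiles are not equally strict. In HoxC, 7 Meis peaks in place of 5 passed as the same, while a median percentile of 96.6 in place of 95.4 did not. With windows wider by 20 kb, HoxC held 2 Prep peaks and 2 overlapped Meis peaks, since the pair past its anterior edge entered, and the median percentile of the HoxD Meis peaks was 82.5. In the highest-scoring 50% of each list, HoxD held 0 Prep peaks and 0 overlapped Meis peaks, because its Prep and Meis partners both lie in the lower part of their lists. Among Meis-only peaks alone, the median percentile was 96.6 in HoxC and 85.4 in HoxD, a step that leaving out 1 peak of a short list brings. On the anterior side were 7 of 7 HoxC and 6 of 9 HoxD Meis peaks in the wider windows. In the highest-scoring 50% they were 5 of 5 and 6 of 7. With the line drawn between the outermost Meis peaks, they were 4 of 5 and 6 of 8. No paired analysis was possible because each group has 1 library. The lists give no reads, so depth sets a limit on what was listed that cannot be stated, and a single Prep peak in each window carries all that is said of Prep there.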
